A study of Mus musculus with 123 samples.

Results

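In single cells of the mouse heart, 30 genes stood out as well expressed 1 day after birth and next to absent in the pooled cells of both embryonic days. They were chosen by their counts, out of 23337 gene symbols. A gene belonged to the set when it reached 30 CPM (counts per 1000000, from the summed counts of a time point) at postnatal day 1 (P1), was found, at 1 count or more, in 25% or more of the P1 cells, and stayed under 3 CPM at embryonic day 9.5 (E9.5) and at E12.5. The P1 limits alone left 3602 genes, and the 30 genes are 0.833% of them. The other 3572 divide into 3476 that were at 3 CPM or more on both embryonic days, 45 under 3 CPM at E9.5 only and 51 under 3 CPM at E12.5 only. Since these values chose the genes, the low embryonic and high P1 levels below are a description and not a finding. No test was possible, since nothing in the labels ties a cell to an animal, a litter or a chip: each time point counts as 1 sample and cells are not replicates. Triplets of values below are in the order of E9.5, E12.5 and P1.

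The cells came from hearts of the strain labelled aMHC-GFP, a transgenic line in which the promoter of the alpha myosin heavy chain gene (Myh6) drives green fluorescent protein, so that sorting on this colour enriches for cardiomyocytes. There was no cell without the transgene, and no treatment was given. Of the 123 deposited cells, amplified on microfluidic chips, the 112 with 2000 or more genes were used. These are all 42 of E9.5, all 29 of E12.5 and 41 of the 52 of P1. Total counts per cell ran from 268301 to 6351742 at E9.5, from 148258 to 7711355 at E12.5 and from 69522 to 327360 at P1. The embryonic hearts were digested with collagenase and the P1 hearts with Liberase, so time point, digestion, chip and depth cannot be told apart. Cell titles fall into naming sets by their prefix: E9.5 has 14 cells in set C and 28 in N530, E12.5 has 20 in C, 8 in N523 and a lone cell in E12-5b, and P1 has C alone. Of 10 cardiomyocyte markers, 8 were found in all 41 P1 cells, Ryr2 in 40 and Myh7 in 39. Cells with 3 or more of these markers at 10 counts or more were 39 of the 42 at E9.5, all 29 at E12.5 and 40 of the 41 at P1. At P1 the epicardial and erythroid marker lists were at 0 counts and 1 of 7 fibroblast markers had any, while 6 of 7 endothelial markers had counts, at a summed 246 CPM. Nearly all of these lay in 1 cell, cell 25, without which 2 of the 7 had counts, at 4.54 CPM. Smooth muscle or pericyte, leukocyte and neural markers summed to 12.2, 13.3 and 4.84 CPM at P1, with 1 gene of each list having counts. In the pooled E9.5 and E12.5 cells, epicardial markers summed to 233 and 17.6 CPM, fibroblast markers to 206 and 51.4 CPM and endothelial markers to 67.7 and 0.336 CPM. The part of such cells in the results was not tested. The cell medians of 4 atrial markers were 11514, 6468 and 441 CPM, and those of 4 ventricular markers 6548, 8360 and 16716 CPM. Cells with 3 or more atrial markers at 10 counts or more numbered 32, 18 and 7. For ventricular markers they numbered 35, 23 and 34. Whether the mix of chambers differed between time points was not tested.

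Around birth the heart changes its fuel from glucose and lactate towards fatty acids, which cardiomyocytes take up, store for short times in lipid droplets, bind to coenzyme A and burn in mitochondria. Nuclear receptors of the PPAR family, of which Ppara is the main form in the heart, sense fatty acids and switch on many genes of this pathway. In the same period the contractile apparatus, its membrane systems and its creatine kinases take on their adult forms.

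**Figure D1:**
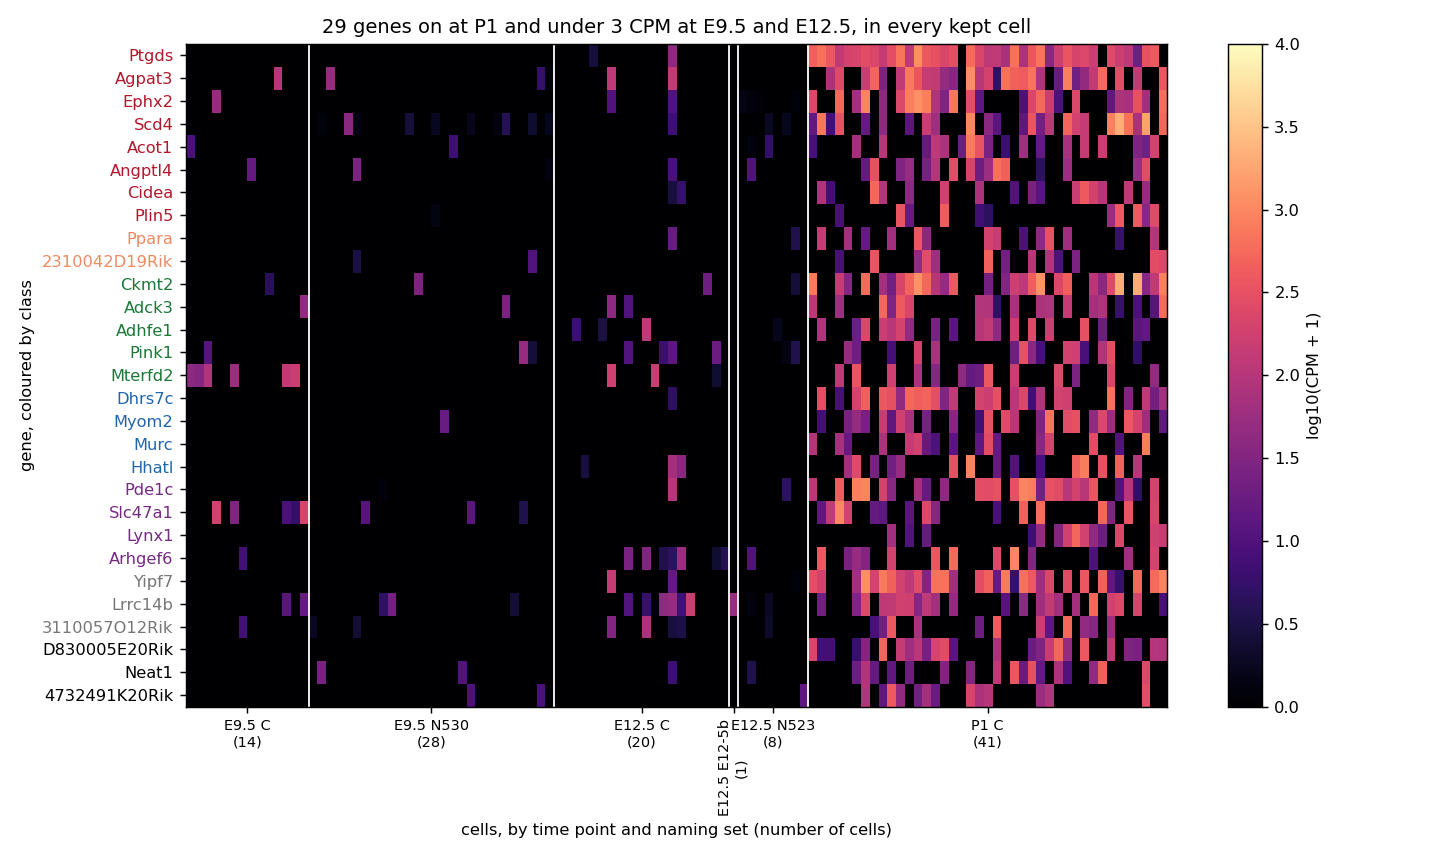
Level of 29 of the 30 genes (rows, coloured by class) in each of the 112 kept cells (columns, by time point and naming set), as log10(CPM + 1) of the cell. The P1 block is filled unevenly, with 2 to 25 of the 30 genes found per cell, and 1 column of E12.5 set C stands out.

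A cell of E12.5 and a cell of P1 stood apart, and results are given with and without them where they matter. At E12.5, cell 14 (set C, 536592 counts) held 17 of the 30 genes, whereas the embryonic cell with the next most, E12.5 cell 7 (set C), held 6. By summed level the 2 were alike, at 488 CPM in cell 14 and 519 CPM in cell 7. Cell 7 held 59 of the 68 counts of Yipf7 and 73 of the 120 of Mterfd2 at E12.5, and without it the same 30 genes met the rule. Cell 14 supplied 262 of the 1116 counts that the 30 genes had at E12.5, and all of the counts of Dhrs7c (2) and 21 of the 22 of Ptgds. Without it 31 genes met the rule, the 30 and Pdzd2. At P1, cell 25 was the only cell in which 3 or more markers of another cell type (endothelial) were at 10 counts or more. In it 2 of the 30 genes were found, Mterfd2 and Acot1, and the cardiomyocyte markers summed to 476 CPM against a median of 96669 over the P1 cells. Without it 34 genes met the rule, the 30 and 4 that had lain just under a P1 limit (Fcgrt, Urgcp, 1110038D17Rik and Chrm2). Embryonic cells also met this marker criterion. At E9.5 it was met for endothelial markers in 1 cell and for fibroblast markers in 2. At E12.5 it was met for fibroblast markers in 1 cell and for smooth muscle or pericyte markers in 1. Results without these embryonic cells are not given.

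The 30 genes together summed to 17.5, 22.1 and 3481 CPM (17.1 CPM at E12.5 without cell 14 and 18.0 CPM without cell 7). Written by known role, after the genes were seen, 9 of them act on lipids, 5 in mitochondria, 4 in muscle structure and calcium handling, 4 in signalling and transport, and 2 control the transcription of metabolic genes, while 3 are long noncoding RNAs and 3 are proteins with other or little known roles. The lipid genes held 43.1% of the summed CPM at P1, a measure not scaled for gene length. Of the lists of genes written for this tissue, the one on fat, sugar and mitochondrial metabolism had 117 measured genes, of which 78 were on at P1 and 8 (10.3%) belonged to the set, against 0.833% of all genes on at P1. The sarcomere list gave 2 of 61 genes on at P1 (Myom2 and Murc), the calcium and excitation list 1 of 32 (Dhrs7c) and the transport list 1 of 7 (Slc47a1). The lists for transcription and RNA control (23 genes on at P1), secreted and matrix proteins (10), hormone, circadian and stress response (9), immediate early genes (5) and immune response (3) gave none. Of the 30 genes, 18 were on no list. The lists were written with earlier results of these data known, so these shares are a description and no support for a theme.

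Ptgds, lipocalin-type prostaglandin D synthase, was the most widespread of the 30 genes and had the highest mean length-scaled level at P1, with a mean of 565 TPM (transcripts per 1000000). It was found in 38 of 41 P1 cells (92.7%, exact binomial interval 80.1 to 98.5%), and its cell values ran from 0 to 1145 CPM with a median of 223 CPM. At E9.5 it had no count among the 101042067 counts, and at E12.5 it had 22, from 2 cells. Its pooled P1 level of 268 CPM was thus at least 9033-fold that of E9.5, taking 3 counts as the limit that a count of 0 allows. Such intervals and limits cover counting error only, because reads of these libraries carry no molecular identifiers.

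Scd4, a stearoyl-CoA desaturase that puts a double bond into saturated fatty acids, was at 210 CPM at P1 and in 25 cells, with 29.4% of its counts in 1 cell at 2095 CPM. It was also found in 10 cells at E9.5 (134 counts, 1.33 CPM), 107 of the counts in 1 cell. Scd2 and Scd1 were lowest at P1 in the pooled values, with Scd2 at 516, 306 and 146 CPM and Scd1 at 11.2, 1.13 and 0.293 CPM. Scd3 was highest at P1 (1.91, 0.594 and 11.6 CPM), but all of its 79 counts there were in 1 cell. On the TPM scale, Scd4 averaged 128 TPM at P1 and Scd2 44.5 TPM.

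Agpat3, an acyltransferase that makes phosphatidic acid, was found in 30 P1 cells at 229 CPM. Its relatives Agpat1 (28.4, 7.28 and 11.9 CPM) and Agpat5 (134, 29.9 and 45.7 CPM) were above the limit of 3 CPM at all 3 time points. Agpat2 had the order of Agpat3 at lower levels (0, 0.416 and 15.2 CPM, in 5 P1 cells), and Agpat4 the opposite one (29.6, 1.46 and 0 CPM). Agpat3 itself had 134 and 122 counts at E9.5 and E12.5, and 72 of the latter were in cell 14. Ephx2, the soluble hydrolase of fatty acid epoxides, was found in 26 P1 cells at 206 CPM and had 15 counts at E9.5, in 1 cell, and 13 at E12.5, in 6 cells. Ephx1, the microsomal form, had no count in any embryonic cell and was in 1 P1 cell.

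The other lipid genes were found in fewer cells. Acot1, a thioesterase that frees fatty acids from coenzyme A in the cytosol, was in 19 P1 cells at 49.4 CPM, where its mitochondrial relative Acot2 was in 40 cells at 2287 CPM. Acot2 had already been at 154 and 356 CPM on the embryonic days. The members of this cluster of Acot genes are near-identical in sequence, so their counts could be split between them. Angptl4, a secreted inhibitor of lipoprotein lipase, was in 16 P1 cells at 71.4 CPM, and 123 of its 131 counts at E9.5 were in 1 cell. Cidea, a protein of lipid droplets, was in 16 P1 cells at 40.8 CPM, with no count at E9.5 and 3 at E12.5.

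Plin5, a coat protein that ties lipid droplets to mitochondria, was in the fewest P1 cells, 11 of 41 (26.8%). It was at 49.7 CPM at P1 and had 1 count at E9.5 and none at E12.5. Within its family, Plin4 was also without a count in the embryonic cells and at 26.8 CPM in 9 P1 cells, just under both P1 limits. Plin3 was at 72.3, 63.3 and 90.03 CPM and Plin2 at 37.2, 47.6 and 17.6 CPM.

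**Figure D2:**
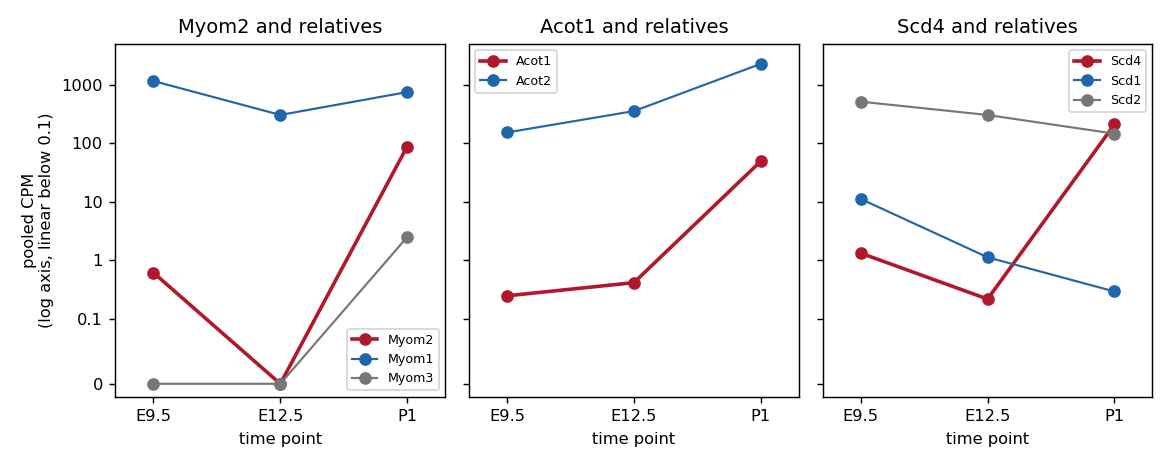
Pooled CPM of 3 genes of the set (red) and their family relatives at the 3 time points, on a log axis that is linear below 0.1 CPM. Myom1, Acot2 and Scd2 were above 100 CPM at all 3 time points, while the 3 genes of the set were under 3 CPM before P1.

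Ppara, the nuclear receptor for fatty acids, was at 38.9 CPM at P1 and in 14 of 41 cells (34.1%, interval 20.1 to 50.6%). Its cell values ran from 0 to 367 CPM, and in the cells with the gene the median was 63.0 CPM. There was no count at E9.5, and the 22 counts at E12.5 came from 2 cells, 9 of them from cell 14. Of its family, Ppard was at 0.604, 0.0396 and 3.67 CPM and Pparg had no count in any kept cell. 2310042D19Rik, now called Perm1, a muscle regulator of mitochondrial genes, was at 51.2 CPM at P1 in 13 cells. It had 41 counts at E9.5, in 2 cells, and none at E12.5.

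Among the mitochondrial genes, Ckmt2 led. It encodes the mitochondrial creatine kinase of striated muscle, which passes energy from ATP to creatine, and was at 356 CPM (342 to 370) in 29 P1 cells, with cell values from 0 to 2040 CPM and a median of 102 CPM. At E9.5 it had 60 counts, 59 of them in 1 cell, and at E12.5 it had 14. Its ubiquitous form Ckmt1 had 1, 21 and 0 counts. Adck3, now Coq8a, which is needed to make coenzyme Q, was in 19 P1 cells at 67.9 CPM. Adhfe1, a mitochondrial transhydrogenase of hydroxy acids, was also in 19, at 50.9 CPM, and had no count at E9.5.

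Pink1, a kinase that marks damaged mitochondria for removal, had the lowest CPM of the set at P1, 32.3 CPM in 15 cells. By mean TPM, Ppara was lowest at 8.21 TPM, and Pink1 was at 24.4 TPM. Of the 254 counts of Pink1 at E9.5, 244 were in 1 cell. Mterfd2, now Mterf4, a factor for the assembly of mitochondrial ribosomes, was at 52.5 CPM in 14 P1 cells. It differed little between P1 and part of the E9.5 cells, as the naming sets below show.

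Myom2, a protein of the M-band that crosslinks myosin filaments, was found in 25 of 41 P1 cells (61.0%, interval 44.5 to 75.8%). Its cell values at P1 ran from 0 to 692 CPM with a median of 22.9 CPM, and the pooled level was 87.98 CPM (81.1 to 95.3). All of its 62 embryonic counts lay in 1 E9.5 cell, at 16.3 CPM of that cell, and none of the 29 E12.5 cells had any. Pooled, P1 was 143-fold above E9.5 and at least 1482-fold above E12.5. Myom1, another M-band protein, was at 1164, 306 and 753 CPM and was found in all P1 cells. On the TPM scale Myom1 averaged 223 and Myom2 29.4 at P1. Myom3 was in 1 P1 cell.

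Murc, now Cavin4, the muscle member of the cavins that coat caveolae, had no count in any of the 71 embryonic cells and was at 56.2 CPM in 17 P1 cells. That is at least 1892-fold above E9.5 and 946-fold above E12.5. The other cavins were above 3 CPM before P1, with Ptrf at 392, 1497 and 337 CPM and Sdpr at 8.14, 89.8 and 150 CPM. Dhrs7c, an enzyme of the sarcoplasmic reticulum in muscle, was in 27 P1 cells at 150 CPM, had no count at E9.5 and had 2 counts at E12.5, both in cell 14. Hhatl, a relative of the hedgehog acyltransferase Hhat, was in 15 P1 cells at 86.7 CPM, and 36 of its 53 embryonic counts were in cell 14. Hhat was under 3 CPM at all 3 time points.

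Pde1c, a phosphodiesterase that calcium and calmodulin activate, was in 26 P1 cells at 195 CPM. It had 1 count at E9.5 and 75 at E12.5, 54 of them in cell 14. Lynx1, a small membrane-anchored protein that modulates nicotinic acetylcholine receptors, had no count in any embryonic cell and was in 14 P1 cells at 41.5 CPM. Arhgef6, an exchange factor for Rac and Cdc42, was in 13 of 41 P1 cells (31.7%) at 82.0 CPM. At E12.5 it was in a similar share, 8 of 29 cells (27.6%), but at 1.90 CPM (96 counts). At E9.5 it was in 1 of 42 cells. Its relative Arhgef7 was at 242, 24.4 and 64.2 CPM.

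Slc47a1 encodes MATE1, an exporter of organic cations that uses a proton gradient. It was in 16 of 41 P1 cells (39.02%, interval 24.2 to 55.5%), with cell values from 0 to 1031 CPM, and the pooled level was 92.5 CPM. In the cells with the gene the median was 156 CPM. No E12.5 cell had a count, which puts P1 at least 1559-fold higher. At E9.5, however, it had 296 counts in 8 cells and lay at 2.93 CPM, the value nearest to the limit among the 30 genes. Slc47a2 had no count in any kept cell.

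Yipf7, a membrane protein with a Yip1 domain, was in 31 P1 cells at 267 CPM and averaged 367 TPM, the second highest of the set. It had no count at E9.5 and 68 at E12.5, 59 of them in 1 cell. Lrrc14b, a leucine-rich repeat protein, was in 22 P1 cells at 65.5 CPM and in 9 E12.5 cells. 3110057O12Rik, now Abhd18, was in 12 P1 cells at 51.2 CPM.

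The 3 noncoding RNAs differed in their embryonic counts. D830005E20Rik had none and was in 25 P1 cells at 75.2 CPM, at least 2534-fold above E9.5 and 1267-fold above E12.5. It is annotated as an antisense gene at chr10:33222345-33256418 (GRCm38) inside the span of Trdn, the gene of the junctional protein triadin, with which it shares no exonic base. Trdn was at 158, 243 and 602 CPM. Neat1, the scaffold RNA of nuclear paraspeckles, was in 17 P1 cells at 46.04 CPM and in 2 cells on each embryonic day, whereas its neighbour Malat1 was in every kept cell, at 7020, 4804 and 30437 CPM. 4732491K20Rik was in 13 P1 cells at 33.4 CPM, and its 99 counts at E12.5 were all in 1 cell.

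**Figure D3:**
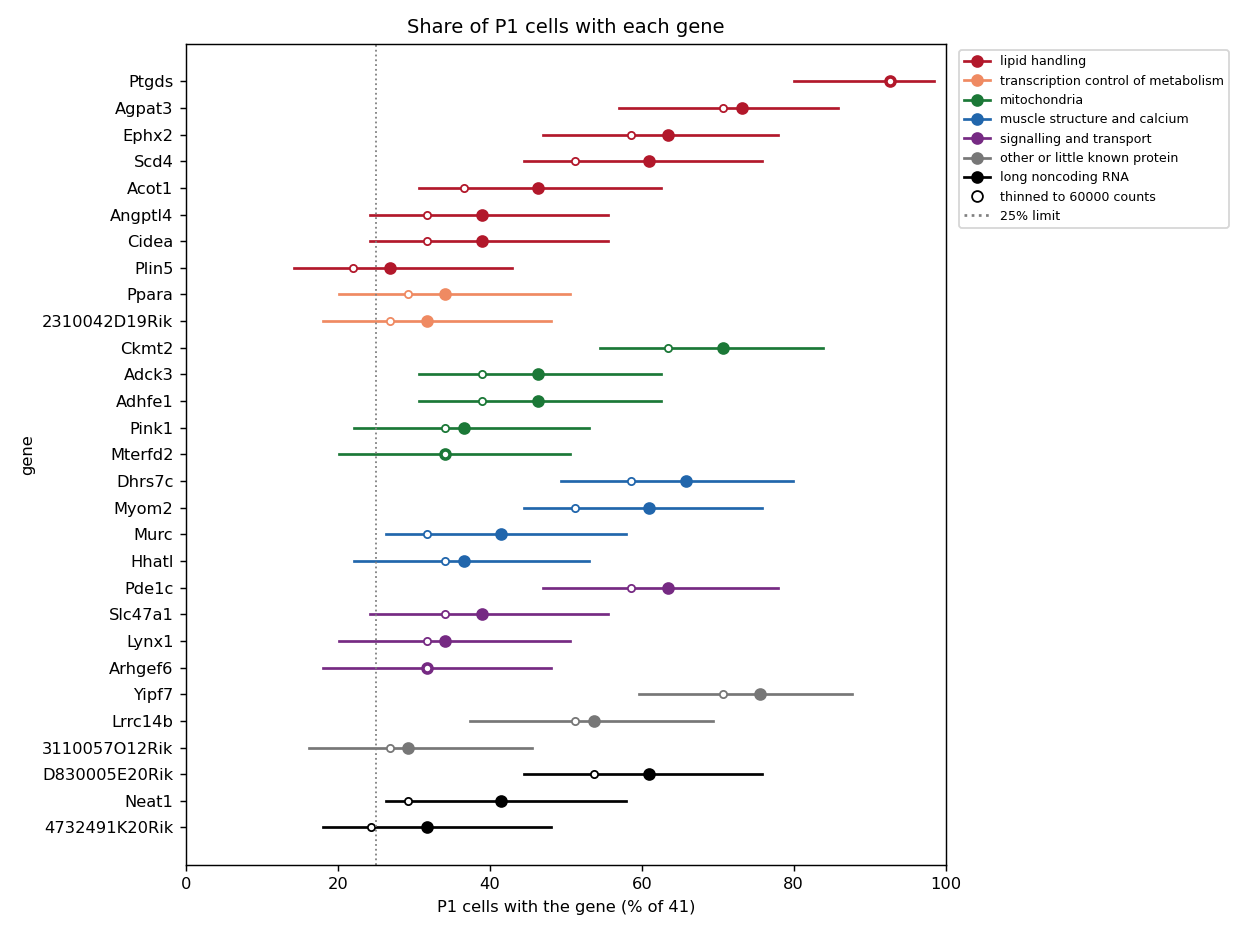
Share of the 41 P1 cells in which each of 29 of the 30 genes was found, in percent, with exact 95% binomial intervals (lines). Open points give the share after each cell was thinned to 60000 counts, and the dotted line is the limit of 25%. Ptgds lies at 92.7% and the others between 26.8% and 75.6%.

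Few of the 30 genes were found in every P1 cell or near it. The share of P1 cells with a gene had a median of 43.9% over the 30, against 53.7% over all 3602 genes on at P1 and 41.5% over the 45 genes under the limit at E9.5 only. In 50% or more of the P1 cells were 12 of the 30 (40%), against 55.7% of all genes on at P1. Thinning every cell to 60000 counts brought the median of the 30 to 35.4% and left 2, Plin5 and 4732491K20Rik, under 25%. The single P1 cell with the most counts of a gene held from 8.19% (Yipf7) to 36.96% (2310042D19Rik) of them, with a median of 24.6%.

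Per P1 cell, 2 to 25 of the 30 genes were found, with a median of 15 with and without cell 25. At E9.5 the cells held 0 to 4 with a median of 1, and at E12.5 0 to 17 with a median of 1. After thinning to 60000 counts, P1 cells held 1 to 22 (median 14), and 38 of the 41 held more than any embryonic cell, of which the highest was cell 14 with 8 and the next held 5. Across the 41 P1 cells the number found had a Pearson r of 0.234 with the log10 total before thinning and 0.0253 after it, a description over cells of 1 sample. In the 11 P1 cells that had Sln, an atrial marker, fewer of the genes were found than in the 30 without it (thinned medians 9 and 14.5), and 26 of the 30 genes were in a smaller share of them, against 49.4% of the 3602 genes on at P1. The 11 cells with Sln were not shown to be atrial. Sln was read at any count, and 7 of the 41 P1 cells had 3 or more of 4 atrial markers at 10 counts or more. Cell 25, with its endothelial markers, is one of the 11. Without it the thinned medians were 9.5 and 14.5, and 23 of the 30 genes were in a smaller share, against 42.6% of the genes on at P1. Before thinning, Ephx2 differed most, in 3 of the 11 cells (3 of 10 without cell 25) and 23 of the 30, and for none of the 30 genes did the exact intervals of both shares lie apart, with or without cell 25. After thinning, Ckmt2 differed most, in 2 of the 11 cells (18.2%, interval 2.28 to 51.8%) and 24 of the 30 (80%, 61.4 to 92.3%). Ephx2 was then in 2 of the 11 cells and 22 of the 30 (73.3%, 54.1 to 87.7%). For these 2 of the 30 genes the thinned intervals lay apart, against 0.389% of the genes on at P1. Without cell 25 they did so for Ckmt2 alone, against 0.333%. These intervals cover the counting of cells within 1 sample and are no test.

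**Figure D4:**
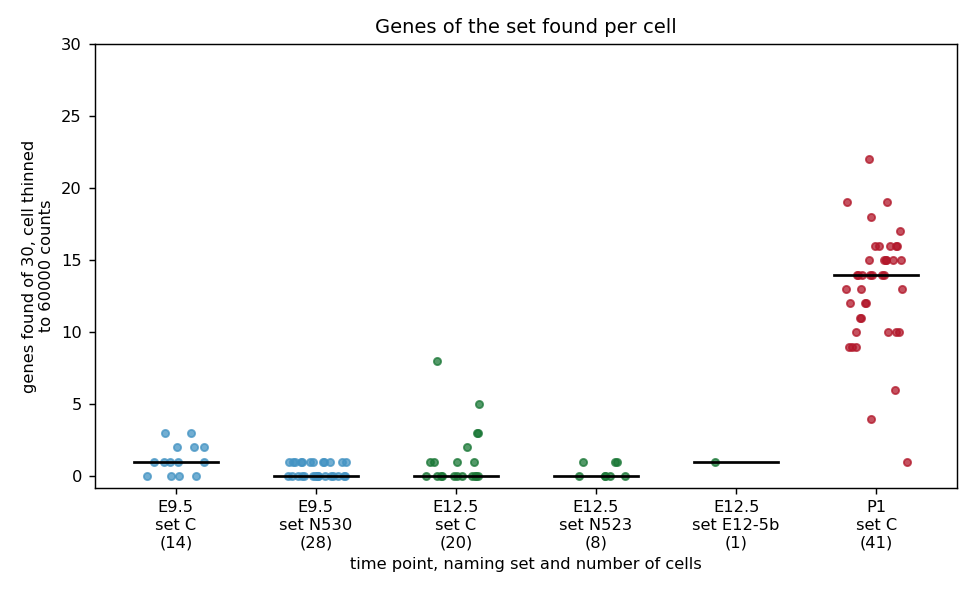
Number of the 30 genes found in each kept cell (points) after thinning to 60000 counts, by time point and naming set, with the median as a line. P1 cells lie between 1 and 22 with a median of 14, and embryonic cells between 0 and 8.

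The pooled embryonic values hid a difference between the naming sets. Of the E9.5 counts 94.5% came from N530, and of the E12.5 counts 82.7% came from N523, so a gene present in the shallower C cells could remain under 3 CPM. With the 4 embryonic sets of 6 or more cells pooled on their own, 18 of the 30 genes were under 3 CPM in each of them (0.5% of the genes on at P1), and 12 reached 3 CPM in at least 1. None reached it in N530 or N523, 4 did in C at E9.5 and 10 in C at E12.5 (7 without cell 14). Without cell 14, 9 of the 30 genes reached 3 CPM in at least 1 set and 21 in none, with Pde1c, Hhatl and Pink1 under it. Other genes rested on other single cells. With each gene's top cell of a set left out of that set, 5 of the 12 still reached 3 CPM in at least 1 set, namely Mterfd2, Slc47a1, Lrrc14b, Agpat3 and Arhgef6. Whether cell 14 holds RNA of another cell or carries another label was not tested.

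Mterfd2 showed the least difference, at 40.8 CPM in set C of E9.5 (6 of 14 cells) and 14.6 CPM in set C of E12.5. At P1 it was at 52.5 CPM, in 14 of 41 cells. Without its top cell of each embryonic set, the set values were 30.5 and 6.02 CPM. Slc47a1 was at 34.7 CPM in set C of E9.5, in 5 of 14 cells (14.0 CPM without its top cell), and at 1.07 CPM in N530. Adck3 and Agpat3 were at 4.83 and 4.65 CPM in set C of E9.5, each with all of its counts in 1 cell. In set C of E12.5, 3 more values stayed above 3 CPM without the gene's top cell, with Agpat3 at 14.8 CPM in 2 cells (6.51 without), Lrrc14b at 13.3 CPM in 6 (6.88) and Arhgef6 at 6.81 CPM in 7 (4.12). The other 6 fell under 3 CPM without their top cell. Yipf7 went from 8.15 to 1.03 CPM without cell 7, Pde1c from 6.57 to 0 and Hhatl from 6.45 to 2.21 CPM without cell 14, Adhfe1 from 6.08 to 0.384 and 3110057O12Rik from 5.72 to 1.92 CPM without cell 11, and Pink1 from 3.41 to 2.01 CPM without cell 19. The summed level of the 30 genes was 93.9 CPM in set C and 13.0 CPM in N530 at E9.5, and 97.0 CPM in set C (74.5 without cell 7, 69.7 without cell 14 and 43.9 without both) and 6.96 CPM in N523 at E12.5, all far below the 3481 CPM of P1. Under the limit in every set were, among the 18, Myom2, Ptgds, Ckmt2, Dhrs7c, Ephx2, Scd4, D830005E20Rik, Acot1, Murc, Neat1, Angptl4, Cidea, Lynx1, Ppara, 2310042D19Rik, 4732491K20Rik and Plin5.

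**Figure D5:**
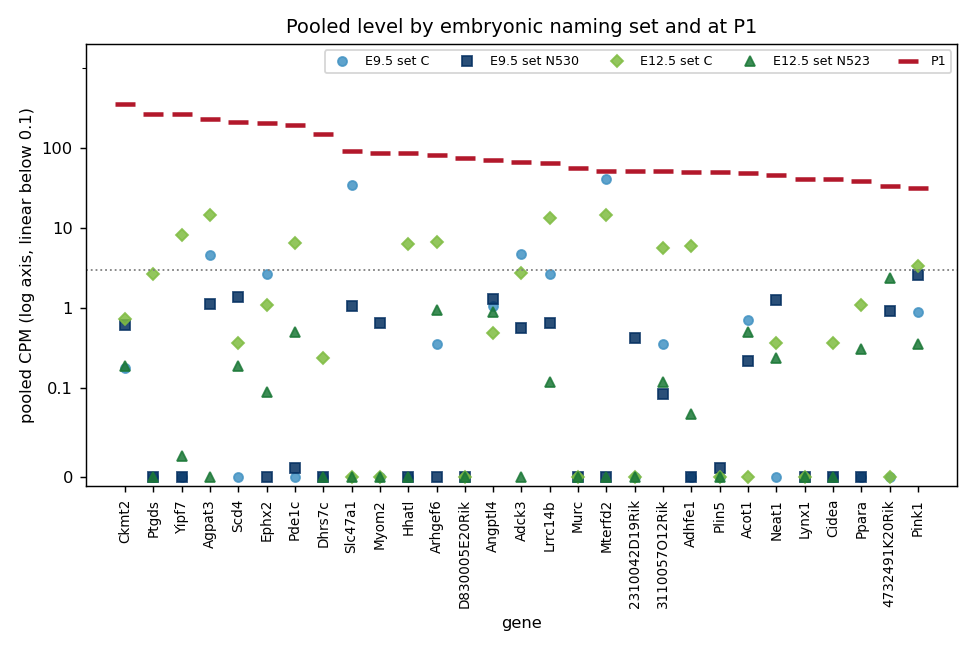
Pooled CPM of 29 of the 30 genes in the 4 embryonic naming sets (symbols) and at P1 (red bars), on a log axis that is linear below 0.1 CPM, with the 3 CPM limit dotted. In set C of E9.5, Mterfd2 lies at 40.8 CPM, near its P1 level of 52.5 CPM, and Slc47a1 at 34.7 CPM, below its P1 level of 92.5 CPM.

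Embryonic counts lay in few cells, as they did for low genes in general. At E9.5, 11 of the 30 genes had no count, and in 16 of the other 19 a single cell held 50% or more of the counts, against 87.3% of all genes with a count and under 3 CPM on that day. At E12.5, 7 had no count (9 without cell 14), and in 18 of the other 23 a single cell held 50% or more, against 85.9%. Murc, D830005E20Rik and Lynx1 were the 3 genes with no count on either day, which allows up to 0.0297 and 0.0594 CPM. By the limits that chose them, all 30 were 10-fold or more above both days, as were 64 (1.78%) of the genes on at P1.

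The 11 P1 cells with under 2000 genes, which the rule did not use, gave the same measure in cells of the same time label. They held 714929 counts, and the 30 genes summed to 2999 CPM. Of the 30, 26 had a count in them and 18 (60%) were at 30 CPM or more, near the 68% of all 3602 genes on at P1. Ckmt2 was at 490 CPM, Adck3 at 387, Yipf7 at 305 and Ptgds at 144 CPM, while Slc47a1, Murc, Mterfd2 and Plin5 had no count, which allows up to 4.20 CPM.

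Just inside the P1 level were Pink1 (32.3 CPM) and 4732491K20Rik (33.4 CPM), and just outside it Epas1 and Urgcp (both 29.8 CPM). By share of P1 cells, Plin5 (26.8%) and 3110057O12Rik (29.3%) were just inside and Fcgrt and 1110038D17Rik (both 24.4%) just outside. At E9.5, Slc47a1 (2.93 CPM) and Pink1 (2.51) were inside and Gpr157 (3.51) and Frmd5 (3.96) outside. At E12.5, Lrrc14b (2.81) and Agpat3 (2.41) were inside and Selenbp1 (3.09) outside.

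In the GENCODE annotation of GRCm38, 27 of the 30 genes are protein coding and 3 are not, and they lie on 18 chromosomes, with Arhgef6 alone on the X chromosome. Myom2 lies at chr8:15057653-15133541 on the plus strand with 40 exonic blocks, and Slc47a1 at chr11:61343401-61378345 on the minus strand with 20. For 10 genes some exonic bases are shared with another annotated gene. All 2755 exonic bases of Lrrc14b lie within exons of Ccdc127 on the opposite strand, and Mterfd2 shares 1855 of its 5271 with Sned1. How strand was treated in the counting is not given in the sources used here, so the reads of these pairs cannot be told apart. Ccdc127 was at 123, 81.3 and 47.5 CPM, opposite to the order of Lrrc14b, and Sned1 had no embryonic count and was at 10.3 CPM at P1.

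RefSeq promoter sequences (GRCm38.p6, 250 bases before to 50 after a start) were at hand for 18 of the 30 genes, 24 promoters in all. They held a median of 7.5 CG dinucleotides (2 to 39), against 22 over the 3770 promoters of genes on at P1 and 7 over all 32851, and the median GC content was 57.3%, 61.7% and 52.7%. GGGCGG, searched on both strands as were all motifs, was in 10 of the 24 (41.7%), against 64.2% of promoters on at P1 and 35.7% of all. The E-box letters CANNTG were in 23 (95.8%), against 61.6% and 72.3%. AGGTCA, the half-site of nuclear receptors, was in 5 (20.8%), of Plin5, 2310042D19Rik, Hhatl and Adck3, against 13.1% and 16.3%. TATAAA was in 2 (8.33%), of Murc and Lrrc14b, against 7.80% and 13.6%, and in both it began 30 bases before the start. TATAAA beginning between 35 and 25 bases before the start was in 1.11% of the promoters on at P1. CATTCC was in 3, GATAAG in 1 and ACANNNTGT in 1 of the 24, against 11.4%, 4.93% and 3.61% of those on at P1, and TCAAGGTCA and CTATTTTTA were in none, against 0.212% and 0.584%. A match describes letters in this window and no binding.

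Stretches of 3 of these promoters are printed 5′ to 3′ in the direction of the gene, Murc for its TATAAA and 2310042D19Rik and Plin5 for AGGTCA or its reverse complement, which are in capitals. They lie at chr4:48663414-48663513 (plus strand), chr4:156215707-156215806 (plus) and chr17:56117669-56117768 (minus).
Murc: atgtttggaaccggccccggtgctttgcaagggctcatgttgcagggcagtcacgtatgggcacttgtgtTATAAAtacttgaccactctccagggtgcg
2310042D19Rik: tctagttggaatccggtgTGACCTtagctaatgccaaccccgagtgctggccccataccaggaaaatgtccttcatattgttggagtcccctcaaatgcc
Plin5: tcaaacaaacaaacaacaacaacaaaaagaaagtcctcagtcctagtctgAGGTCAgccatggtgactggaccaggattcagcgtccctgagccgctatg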

How the data were processed

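Cells of 3 time points were sorted from hearts and amplified with the SMART-Seq V4 kit. Reads were mapped by the authors with OLego, and the deposited raw counts per gene symbol were made with featureCounts; the submitters' processing notes name GRCm38 (mm10). The deposited TPM were computed by the authors from the counts and are on a linear scale. All 123 columns were matched to a cell by title. Doublets were not treated.

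Counts of the cells with 2000 or more genes were added up within a time point and scaled by their total to CPM; TPM served to compare genes. Intervals are exact Poisson (CPM) and exact binomial (shares) at 95%. Where no count was found, 3 counts of the total were taken as the upper limit. At P1, 1 count is 0.147 CPM. Cells were thinned to 60000 counts with a fixed seed. With 1 sample a time point, nothing was tested. The members, gene lists and roles were chosen with earlier results of these data known, and the relatives after the members were seen. Genes named are those with the largest shares and TPM, the first 3 of each class and those near a limit. Alternatives covered cells, limits, pooling, naming sets, thinning and edgeR 4.0.16 TMM factors. The rule was also run on simulated counts without naming sets, in which the planted genes had no embryonic level. That run cannot show how the rule performs in these data. The values of 1 of the 30 genes, and of 1 gene outside a limit, are not reported here. Python 3.11.15 and pandas 2.3.3 were used.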

Additional observations from a re-analysis of the deposited data

Results flagged for a closer look

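In the 11 P1 cells that were left out for having under 2000 genes, the 30 genes summed to 2999 CPM, against 17.5 CPM in the E9.5 and 22.1 CPM in the E12.5 cells. It is listed because these cells were not used to choose the genes. The embryonic sums were held low by the choice itself, and the left-out cells belong to the same P1 sample, so the values are a description. The left-out cells held 4 to 15 of the genes (median 8) at totals from 4903 to 149120 counts, and they share the time label of the other P1 cells. Of the 30 genes 18 (60%) were at 30 CPM or more in them, against 68% of all 3602 genes on at P1.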

How the results depend on the processing

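The number of genes that met the rule was 30. It stayed within 1.5 times of that with 1000 or 3000 genes per cell, 2 counts, means of cell CPM, TMM factors, thinning, either group of embryonic naming sets, a P1 minimum of 10 CPM, and without titles ending in "no", the endothelial-marker cell or each gene's top P1 cell (22 to 45). It was 15 with 10 counts for a gene to be found, 15 with mean TPM, 15 and 77 with embryonic limits of 1 and 10 CPM, 9 with a P1 minimum of 100 CPM and 12 with a P1 share of 50%. In 3 settings added after the data were seen it was 18 (under 3 CPM in each of 4 naming sets), 31 (without E12.5 cell 14) and 30 (without E12.5 cell 7). In all 18 planned settings 4 genes met the rule, among them Dhrs7c, Ckmt2 and Ephx2; Myom2 met it in 16 and Slc47a1 and Mterfd2 in 9.

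The median share of P1 cells, 43.9%, was 25.6% with 10 counts and lay between 35.4% and 50% in the other settings, among them 48.3% without the Sln cells, also added after the data were seen. The number of genes with no embryonic count, 3, was 9 after thinning, 7 in set C only and 9 without set C, each of which searches fewer counts. Without their top P1 cell Myom2 and Slc47a1 were at 73.7 and 70.4 CPM. Both values lie under the lower ends of their Poisson intervals, 81.1 and 85.4 CPM. Also added after the data were seen, the genes at 3 CPM or more in at least 1 naming set fell from 12 to 9 without E12.5 cell 14 and to 5 without each gene's top cell of the set, and those in a smaller share of the Sln cells from 26 to 23 without P1 cell 25. No paired analysis was possible because no test was made. The depth at P1 limits how low a gene can be seen in a cell there, and the labels do not say how many animals gave the cells.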
